A study of Homo sapiens with 8 samples.

Results

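The response of IMR90 fibroblasts to 6 h of Nutlin-3a was read from 4 of the 8 polyA RNA-seq libraries of a time course, namely 2 libraries of cells given Nutlin-3a at 3 µg/mL for 6 h and 2 libraries of cells given DMSO, the solvent control. These 4 libraries are the earliest exposure and its control, and were chosen by their labels alone. The other 4 libraries, from cells treated for 9 and 12 h (n = 2 each), entered where the 6 h state was set against later exposure and in the estimate of the spread. IMR90 is a line of primary human lung fibroblasts, used here at passage 28 and kept in DMEM with 10% serum in an atmosphere of 3% oxygen and 5% carbon dioxide. All groups came from the same line, and cells lacking p53 were not among the samples. The labels do not give the time for which DMSO cells were cultured, so exposure cannot be told apart from time in culture or time of harvest. They also do not say whether replicates were separate cultures, and the p-values then measure only the spread between these libraries, which may be technical.

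p53 is a transcription factor that is made continuously and held low by MDM2, a ubiquitin ligase that binds it and sends it to the proteasome. Nutlin-3a occupies the p53 pocket of MDM2, so p53 accumulates without DNA damage. p53 switches on genes for cell-cycle arrest, cell death, repair, metabolism and its own feedback, and MDM2 is itself such a target. Repression of cell-cycle genes is known to run largely through p21, the product of CDKN1A: by inhibiting cyclin-dependent kinases it keeps the RB family of proteins active, and these shut genes with E2F sites (mostly G1/S genes) or CHR elements (mostly G2/M genes) in their promoters.

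The libraries held 21.9 to 33.6 M (1e6) gene reads (27.9 and 25.3 in DMSO replicates 1 and 2, and 21.9 and 28.6 in 6 h replicates 1 and 2). The 2 DMSO libraries lay farther apart than any other pair, their log2 differences over 11461 genes having an SD of 0.174, where the 6 h pair had 0.129. Of 20 fibroblast markers all were above 3 reads in the 4 libraries, with summed normalized counts of 1614473 and 1642180 in DMSO and of 1596798 and 1633400 at 6 h. Immune markers were absent or low: PTPRC did not pass the filter on low values, and 5 of 8 markers were in the table, with sums of 748 to 905 that were mostly CD68. The endothelial marker CDH5 and the epithelial marker CDH1 did not pass the filter either. Other endothelial markers were present, and 3 of the 8 listed passed the filter, namely TEK, VWF and KDR. Only 1 of these reached a mean normalized count of 50 over the 8 libraries. The sum over the 6 endothelial markers in the table was 2076 and 1975 in DMSO and 1874 and 1990 at 6 h. Some keratins were present: the sum over 8 epithelial markers was 3100.4 and 3180 in DMSO and 3714 and 3888 at 6 h, and KRT18, KRT8 and KRT19 are dealt with below. In bulk RNA, fewer cells of a type and less RNA per cell cannot be told apart.

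Values below are normalized counts, that is, reads scaled to a common library depth. A change is the difference of means of log2(normalized count + 1), 6 h minus DMSO, with its standard error. A gene is said to have risen or fallen where the Benjamini-Hochberg adjusted p of limma over 14074 genes was under 0.05. By this test 2263 genes rose (16.1%) and 2897 fell (20.6%), together 36.7%. Most of these changes were small. The median fold was 1.28 in both directions, 753 genes that rose and 862 that fell did so by less than 1.2-fold, and only 235 rose (1.67%) and 190 fell (1.35%) at least 2-fold. The tails differed in shape, since 46 genes rose at least 4-fold and 10 fell that far. Groups of 2 are also easily separated: the DMSO and 6 h values did not overlap for 62.7% of all genes tested, so the lack of overlap in a single gene says little.

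**Figure D1:**
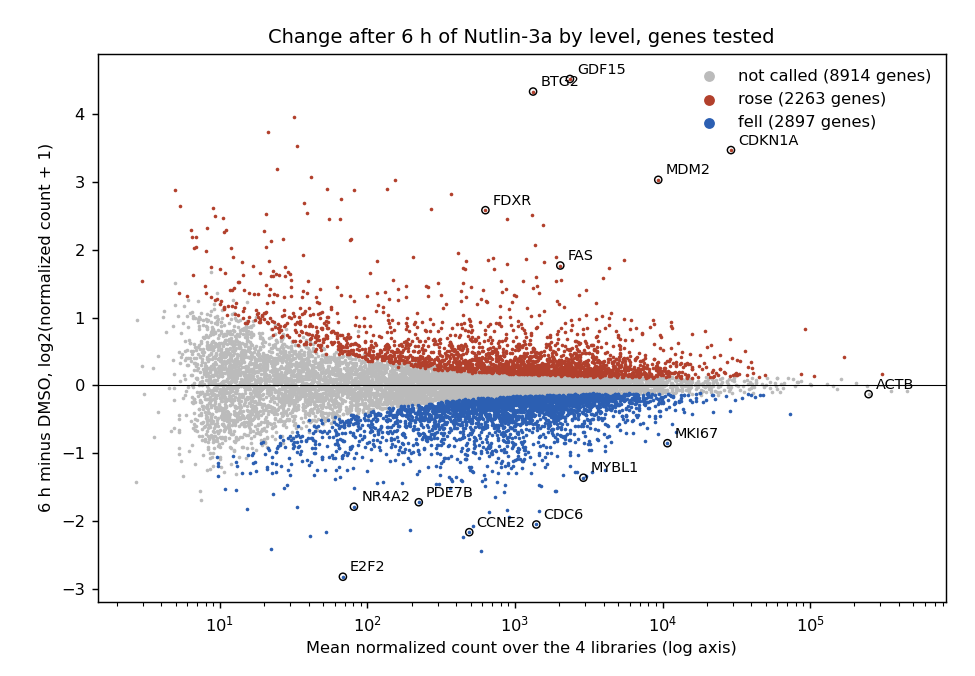
Each point is one of 14074 genes, with the mean normalized count over the 4 libraries on a log axis (x) and the change from DMSO to 6 h on the log2(normalized count + 1) scale (y). The 2263 genes that rose and the 2897 that fell lie on both sides at all but the lowest levels, and GDF15, BTG2, CDKN1A and MDM2 stand above 3 on the log2 scale, where few genes of their level lie.

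MDM2 and other feedback regulators of p53 rose. MDM2 had 1882 and 2196 normalized counts in DMSO and 17569 and 15770 at 6 h, an 8.19-fold increase (3.03 ± 0.06, adjusted p = 1.36e-18). The 6 h values lay far above the DMSO values, and MDM2 in the later libraries (17468 to 17872) was not called against its 6 h value (adjusted p = 0.258). MDM4, a relative of MDM2 that masks the p53 activation domain, was not called (380.2 and 452 in DMSO, 454 and 429.5 at 6 h, change 0.09 ± 0.09, adjusted p = 0.481), and its groups overlapped. PPM1D, a phosphatase (WIP1) that removes activating marks from p53 and its kinases, rose from 486 and 481 to 1116 and 1070 (2.26-fold). CCNG1, the cyclin G1 gene, which recruits a phosphatase to MDM2, rose from 2039 and 2257 to 5041 and 4894 (2.31-fold). ZNF385A, which encodes a p53-binding zinc finger protein, rose from 151 and 136 to 256 and 296. Over the whole list of p53 circuit genes, 8 of 24 tested genes rose and 9 fell, with a median of −0.09 against −0.01 over all genes, and 3 of the 8 rose at least 2-fold, namely MDM2, CCNG1 and PPM1D. Over the alternative analyses 5 to 8 rose and 5 to 9 fell, with 5 rising both without 6 h replicate 1 and without DMSO replicate 1.

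The MDM2 promoter holds the element through which p53 drives its own inhibitor, and it can be read from the RefSeq promoter windows (GRCh38.p14, from 250 bases before to 50 after an annotated start, 5′ to 3′ on the strand of the gene). The windows were searched on both strands for the p53 response element, taken as 2 adjacent copies of its 10-base unit with no spacer, at most 2 mismatches in 20 bases and the central C and G of each unit kept. A gene counted as having a match if any of its windows held one. Such a match was found for 37 of the 10598 tested genes that have a window (0.349%). The MDM2 and FAS matches are shown because both genes are textbook p53 targets and both rose; capitals mark the matched element, and the MDM2 stretch is chr12:68808903-68808962 and the FAS stretch chr10:88991289-88991348, both on the plus strand.
MDM2: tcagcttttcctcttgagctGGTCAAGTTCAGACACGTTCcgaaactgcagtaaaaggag
FAS: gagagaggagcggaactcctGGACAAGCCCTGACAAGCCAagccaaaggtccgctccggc
The MDM2 element begins 94 bases and the FAS element 122 bases before the annotated start used, and each has 2 mismatches. In both genes another annotated start lies farther upstream. Of the 37 genes with a match 17 rose (45.9%) and 3 fell, against 16.1% and 22.2% of all genes with a window. Beside MDM2 and FAS, those that rose included DDB2, a UV damage recognition factor, AEN, a nuclease, and PTCHD4. The match did not separate risers cleanly: GLS2, a glutaminase gene and known p53 target, had 22.1 normalized counts in DMSO and 23.6 at 6 h on average and was not called. The stretch that matched in FAS also lies in the window of ACTA2, which starts nearby on the opposite strand and fell (from 8953 and 7722 to 6631 and 7223, −0.26 ± 0.06). Conversely, 144 of the 149 genes that rose at least 2-fold and have a window had no match. Many known p53 sites lie in introns or farther upstream, outside these windows.

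Of 26 tested arrest genes 22 rose and 0 fell, with a median change of 0.89, and 11 rose at least 2-fold. CDKN1A had 4954 and 4670 normalized counts in DMSO and 52553 and 54207 at 6 h, an 11.1-fold increase (3.47 ± 0.04, adjusted p = 8.09e-22). It was higher again in the 9 and 12 h libraries, at 68941 to 72462 (6 h minus later −0.40 ± 0.04, adjusted p = 8.07e-08). BTG2, an antiproliferative cofactor of the CCR4-NOT deadenylase, went from 127 and 121 to 2572 and 2483, a 20.2-fold increase, and the later libraries (2220 to 2541) were not called against 6 h (adjusted p = 0.112). The sestrins, which restrain mTORC1 and counter oxidative stress, rose from 263 and 276 to 1517 and 1449 (SESN1, 5.49-fold) and from 537 and 509 to 2098 and 2300 (SESN2, 4.2-fold). PHLDA3, an inhibitor of AKT, rose 3.32-fold. ATF3, a stress transcription factor, rose from 49.8 and 50.5 to 189 and 176. The 4 members that were not called were SFN, GPNMB, PTPRU and GAS6.

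**Figure D2:**
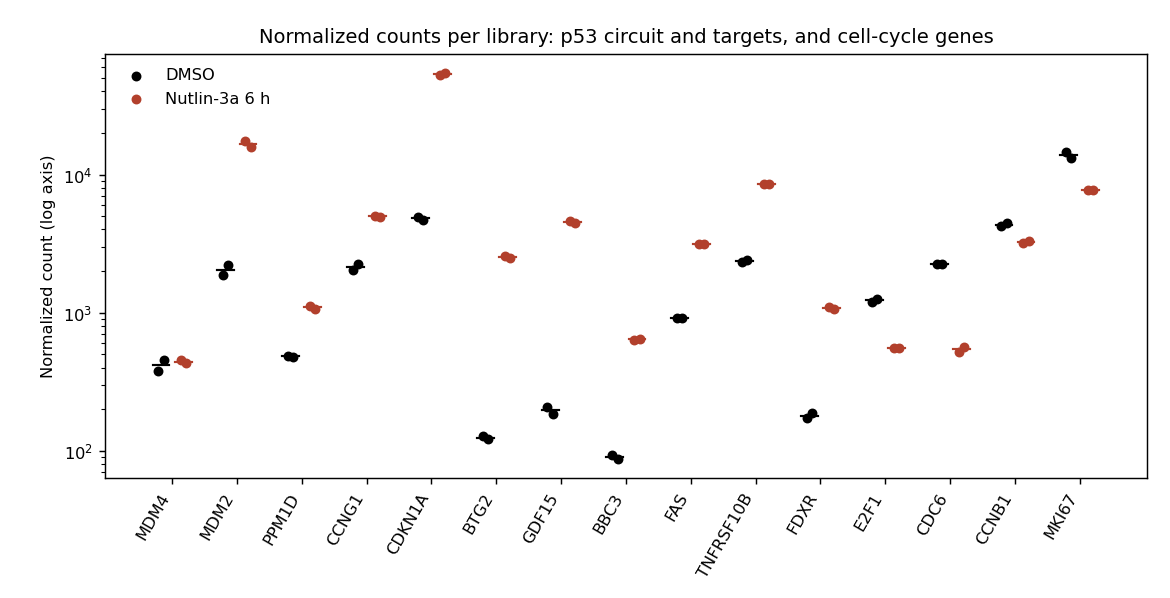
Normalized counts (y, log axis) of 15 genes (x) are drawn for each DMSO library (black) and each 6 h library (red), with a bar at the mean of the 2 libraries. The p53 targets from MDM2 to FDXR lie higher at 6 h, MDM4 overlaps, and the cell-cycle genes E2F1, CDC6, CCNB1 and MKI67 lie lower.

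Death-receptor and apoptosis genes rose in most cases, with 21 of 29 tested genes up, 0 down and a median of 0.71. BBC3, which encodes the BH3-only protein PUMA, went from 93.8 and 87.0 to 638 and 649 (7.05-fold, adjusted p = 1.41e-15), and both 6 h values lay above the later range of 488 to 509.9 (6 h minus later 0.36 ± 0.07, adjusted p = 7.77e-04). FAS, the receptor for FAS ligand, rose from 918 and 922 to 3120 and 3152 (3.41-fold). TNFRSF10B, the TRAIL receptor DR5, rose from 2343 and 2387 to 8592 and 8519 (3.62-fold). TNFRSF10C, a decoy TRAIL receptor, was at 22.5 and 11.8 in DMSO and reached 111 and 119 (2.74 ± 0.20). EDA2R, a receptor of the TNF receptor family, rose 3.68-fold, and SPATA18, a mitochondrial quality control gene, 3.34-fold. The antiapoptotic BCL2L1 rose too (0.97), as did BAX (0.85) and PMAIP1 (0.33), the NOXA gene, by less. These 3 genes were named after their values were seen.

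Repair genes rose more often than all genes did. Of 12 tested, 5 rose and 3 fell, with a median of 0.24 (0.15 without 6 h replicate 1). The share that rose was above the 16.1% of all genes tested, and the share that fell was near their 20.6%. RRM2B, a ribonucleotide reductase subunit, rose from 957 and 1113 to 3142 and 2952 (2.95-fold), DDB2 from 542 and 507 to 1057 and 1055 (2.01-fold), and POLH, a translesion polymerase, from 1480 and 1436 to 2635 and 2617 (1.8-fold). The mismatch repair gene MSH6 went the other way, from 3628 and 3643 to 1520 and 1487 (−1.27 ± 0.05). FANCC, a Fanconi anaemia gene, fell by 0.47 on the log2 scale. MSH6 and FANCC have an E2F word in a promoter window, as described below for replication genes.

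Of 28 metabolic and redox targets 21 rose and 1 fell, with a median of 0.52. FDXR, the ferredoxin reductase of mitochondrial iron and steroid metabolism, rose from 172 and 187 to 1099 and 1063 (6-fold) and was higher again later (1503 to 1778). TIGAR, a fructose bisphosphatase, rose from 706 and 911 to 2914 and 3027 (3.7-fold). ACER2, an alkaline ceramidase, went from 23.5 and 45.1 to 276 and 273. HMOX1, haem oxygenase 1, rose from 379 and 415 to 1323 and 1414 (3.44-fold). ULK2, an autophagy kinase, was the member that fell, from 677 and 723 to 628 and 597 (−0.19 ± 0.07, adjusted p = 0.0382), a call that was lost under 15 of 22 alternative analyses.

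Secreted, membrane and signalling targets rose almost without exception, 43 of 45 up and 1 down, with a median of 0.85. GDF15, a stress cytokine, had 206 and 186 normalized counts in DMSO and 4587 and 4450 at 6 h, a 23-fold increase, and stood above all 4 later libraries (2629 to 3370; 6 h minus later 0.60 ± 0.05, adjusted p = 1.54e-08). CYFIP2, an actin regulator, rose from 69.4 and 82.7 to 483 and 449 (6.08-fold), and the axonemal gene listed as WDR63 from 35.2 and 27.9 to 246 and 235 (7.47-fold). TRIM22, an antiviral ubiquitin ligase, rose 3.28-fold. CD44, a hyaluronan receptor, fell from 52003 and 49012 to 45310 and 45786 (−0.15 ± 0.04), a call lost under 3 of 22 alternatives, 1 of them without 6 h replicate 1 (adjusted p = 0.0721). Among 8 tested p53-linked long non-coding RNAs 6 rose and 0 fell: MIR34AHG, the host gene of miR-34a, from 231 and 229 to 660.4 and 654 (2.85-fold), and NEAT1, the paraspeckle RNA, from 1116 and 1290 to 2833 and 2673 (2.29-fold). Among genes in none of these lists, RRAD, a small GTPase that restrains glucose uptake, rose from 18.6 and 18.3 to 136 and 149 (7.39-fold).

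**Figure D3:**
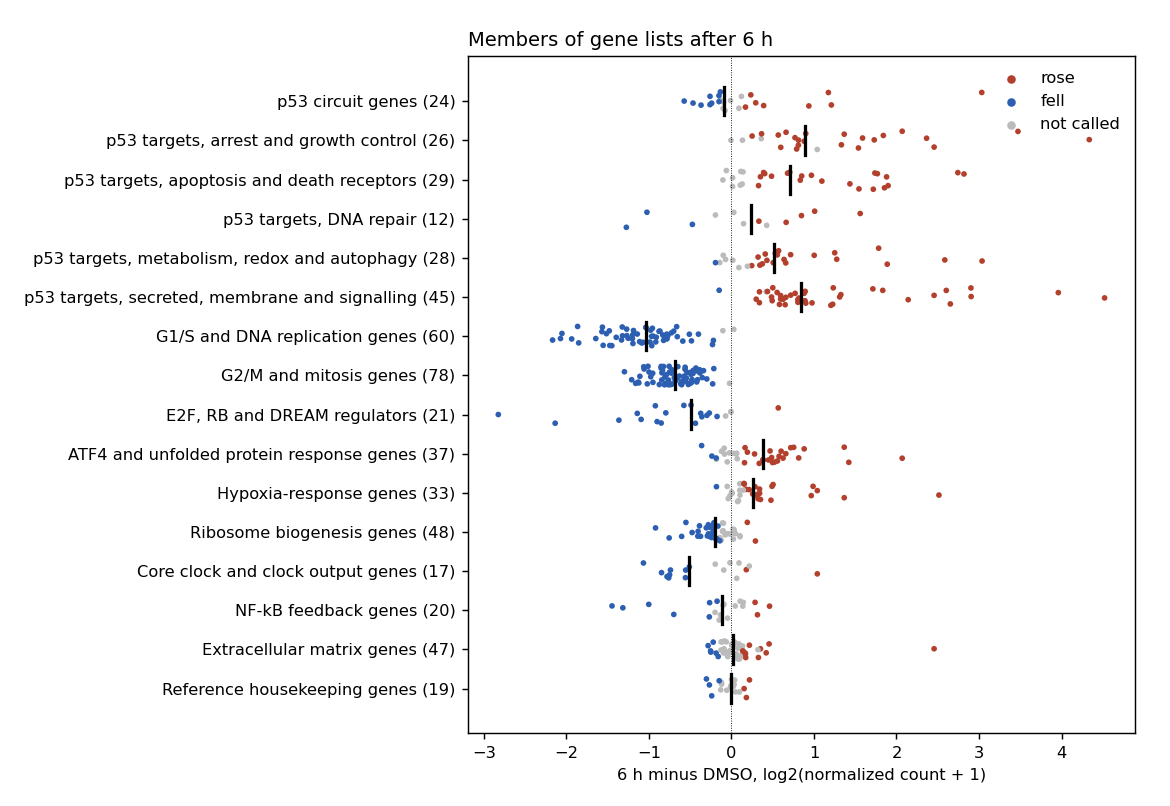
Each point is a tested member of a gene list (y, number of tested members in brackets) at its change from DMSO to 6 h on the log2(normalized count + 1) scale (x), coloured by call, with a black bar at the median of the list. The 5 p53 target lists lie mostly right of 0, the G1/S and G2/M lists left of 0 with medians of −1.04 and −0.68, and the housekeeping list around 0.

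Nearly all cell-cycle genes tested had fallen by 6 h, the G1/S list with a lower median than the G2/M list. Of 60 tested G1/S and DNA replication genes 58 fell and 0 rose (median −1.04), and 31 fell at least 2-fold. Of 78 tested G2/M and mitosis genes 77 fell and 0 rose (median −0.68), and 10 fell at least 2-fold. CCNE2, the cyclin E2 gene, had 758 and 845 normalized counts in DMSO and 186 and 169 at 6 h, a 4.49-fold decrease (−2.17 ± 0.13, adjusted p = 8.58e-11). The licensing factor CDC6 fell from 2242 and 2257 to 523 and 560.2 (4.15-fold lower). ORC1, a subunit of the origin recognition complex, fell from 884 and 784 to 209 and 186, and MCM10, which helps to start the replicative helicase, from 1418 and 1467 to 355 and 399. CDC25A, the phosphatase that activates CDK2, fell from 1044 and 1051 to 298 and 277 (3.64-fold lower). FAM111B, a protease gene, fell 5.43-fold, from 965 and 1013 to 189 and 174. The 2 list members that were not called were TYMS (−0.10) and PCNA (0.03), the sliding clamp, which is also in the list of p53 repair targets; both were named after their values were seen.

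Mitotic genes were lower by less. MKI67, which encodes the Ki-67 antigen, went from 14630 and 13173 to 7686 and 7679 (−0.85 ± 0.05). CCNB1, cyclin B1, went from 4217 and 4420 to 3218 and 3285 (−0.41 ± 0.06, adjusted p = 9.37e-06), and CCNA2, cyclin A2, from 4328 and 4275 to 2234 and 2215 (−0.95 ± 0.06). The deepest falls among the named mitotic genes were those of the kinesin KIF18A (1425 and 1444 to 582 and 585, −1.30 ± 0.07), the centromere chaperone HJURP (2329 and 2141 to 936 and 996, −1.21 ± 0.07) and CDCA5, the sororin gene (2279 and 2241 to 1008 and 1013, −1.16 ± 0.06). PTTG1, the securin gene and the member that was not called, was at −0.02.

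The regulators of these genes fell with them, with E2F7 as the exception. Of 21 tested E2F, RB and DREAM genes 17 fell and 1 rose, with a median of −0.49. The activator E2F1 went from 1194 and 1255 to 553 and 556 (−1.14 ± 0.08). E2F2 went from 117 and 120.3 to 10.01 and 24.98 (−2.82 ± 0.46), a value with a wide error at so few reads. The repressor E2F8 fell from 301 and 328 to 78.8 and 63.4 (−2.14 ± 0.17). E2F7, a repressor that is also a p53 target, rose from 2472 and 2599 to 3908 and 3611 (1.48-fold, adjusted p = 8.85e-08). RBL1, which encodes p107, fell by 1.09 on the log2 scale and LIN54, the subunit of the MuvB core that reads the CHR, by 0.85. RB1 and E2F3 were not called (−0.01 and −0.07, named after their values were seen). MYC fell from 1559 and 1486 to 958 and 965 (−0.66 ± 0.06).

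The promoter windows of the 2 cell-cycle lists were searched for the words known for each class. The E2F words searched were TTTCCCGC, TTTGGCGC and TTTCGCGC, the CHR word was TTTGAA and the NF-Y word CCAAT, each on both strands. An E2F word was found for 27 of the 50 G1/S genes with a window (54.0%), for 5 of 64 G2/M genes (7.81%) and for 5.51% of all 10598 tested genes with a window. The CHR word showed the opposite split, with 45 of 64 G2/M genes (70.3%), 4 of 50 G1/S genes (8.0%) and 13.9% of all. CCAAT was more even, at 78.1% of G2/M genes, 60% of G1/S genes and 42.8% of all. These are counts of letters, not of bound sites. The following stretches lie wholly before the annotated start and are shown as examples of each class among named genes that fell; capitals mark the E2F word in the first 4, and the CHR word (TTTGAA or its reverse complement) and CCAAT (or its reverse complement) in the last 2.
DTL: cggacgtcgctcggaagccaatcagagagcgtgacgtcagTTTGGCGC
E2F1: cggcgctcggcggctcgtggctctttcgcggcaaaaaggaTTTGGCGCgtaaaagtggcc
CDC25A: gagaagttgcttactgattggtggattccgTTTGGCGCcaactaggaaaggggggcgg
MCM3: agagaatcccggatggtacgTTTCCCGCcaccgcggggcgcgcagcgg
HJURP: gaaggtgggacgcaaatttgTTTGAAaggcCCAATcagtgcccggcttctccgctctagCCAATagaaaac
KIF11: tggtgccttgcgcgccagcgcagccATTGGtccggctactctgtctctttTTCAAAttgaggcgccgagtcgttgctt
In GRCh38.p14 they are chr1:212035700-212035747 (plus strand) for DTL, chr20:33686386-33686445 (minus) for E2F1, chr3:48188434-48188491 (minus) for CDC25A, chr6:52284889-52284936 (minus) for MCM3, chr2:233854596-233854666 (minus) for HJURP and chr10:92593052-92593129 (plus) for KIF11. DTL, whose product directs the destruction of licensing factor CDT1, fell 3.61-fold (2278 and 2243 to 630.4 and 622), MCM3, a subunit of the replicative helicase, 2.52-fold (4328 and 4332 to 1686 and 1754), and KIF11, a spindle kinesin, 1.94-fold (4116 and 4270 to 2153 and 2175).

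The share of genes that fell was larger among genes with these words than among all genes with a window, also outside the 2 cell-cycle lists; these differences were not tested. Of all 584 tested genes with an E2F word 37.8% fell and 8.90% rose, with a median of −0.11, against 22.2% and 16.1% of the 10598 genes with a window. Leaving the 2 lists out, 34.6% of 552 genes with an E2F word fell, against 21.4% of 10484. For genes with both a CHR and a CCAAT word outside the lists, 31.4% of 749 fell and 16.7% rose, so they were above the background for decreases and near it for increases. Among the 147 genes with a window that fell at least 2-fold, 23.8% had an E2F word, 20.4% a CHR word and 0 the p53 element. Of the 149 that rose at least 2-fold, 3.36% had an E2F word and 5 genes the p53 element. With only the most upstream window of each gene, these E2F shares were 19.0% and 2.68%. The p53 element was then found for 0.671% of those that rose, against 0.198% of all. A window was at hand for 75.3% of all tested genes, 63.4% of those that rose and 77.4% of those that fell at least 2-fold.

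**Figure D4:**
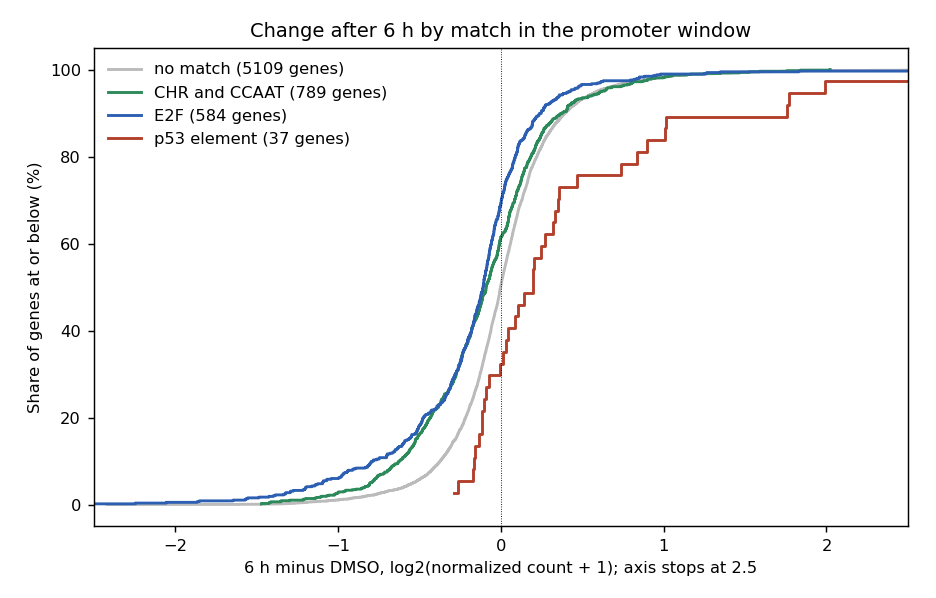
The cumulative share of genes (y, percent) at or below a given change from DMSO to 6 h (x, log2(normalized count + 1) scale, drawn to 2.5) is shown for genes by match in their promoter windows. The curve of the 584 genes with an E2F word and that of the 789 genes with CHR and CCAAT words lie left of the genes with no match, and that of the 37 genes with the p53 element lies right of them.

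Genes of the amino acid and stress response were raised at 6 h. Of 37 tested ATF4 and unfolded protein response genes 24 rose and 3 fell (5 without DMSO replicate 1), with a median of 0.38, and 3 rose at least 2-fold. TRIB3, a pseudokinase induced by ATF4, rose from 504 and 444 to 1277 and 1262 (2.68-fold), DDIT4, an inhibitor of mTORC1, from 858 and 768 to 2053 and 2139 (2.58-fold), and SLC7A5, a transporter of large neutral amino acids, from 8388 and 7767 to 14966 and 14776 (1.84-fold). MTHFD2, a mitochondrial folate enzyme, rose 1.65-fold. The 3 that fell were MANF, an endoplasmic reticulum stress factor (2772 and 2405 to 1968 and 2053, −0.36 ± 0.06), CRELD2 (−0.18 ± 0.06) and ATF5 (−0.24). Of these, MANF and CRELD2 are targets of the ATF6 arm. The CRELD2 call was lost under 3 of 22 alternatives, 1 of them without 6 h replicate 2 (−0.15), and the ATF5 call under 7 of 22. DDIT4 and SESN2 are members of a p53 target list as well. Of 33 hypoxia-response genes 20 rose and 1 fell (median 0.26), among them ANGPTL4, a lipase inhibitor (359 and 423 to 2213 and 2250, 5.71-fold), VEGFA, the angiogenic factor (3019 and 2764 to 5805 and 5667, 1.99-fold), and NDRG1 (1.96-fold).

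Of 48 ribosome biogenesis genes 29 fell and 2 rose, with a median of −0.20; without 6 h replicate 1, 19 fell and 1 rose. The largest fall among those named was that of POLR1E, a subunit of RNA polymerase I (1386 and 1340 to 693 and 748, −0.92 ± 0.07), beside the snoRNP protein NOP56 (−0.55 ± 0.05) and nucleolin, NCL (−0.39 ± 0.04). Of 39 ribosomal protein genes 6 rose and 1 fell, with a median of −0.02; after quantile normalization 4 were up and 7 down. Without DMSO replicate 2, 8 were up and 11 down, without DMSO replicate 1, 2 were up and 0 down, and without 6 h replicate 2, 1 was up and 2 down. Of 19 reference genes 3 rose and 4 fell, near the shares of all genes; without 6 h replicate 1, 2 rose and 2 fell. GAPDH was not called (153567 and 132954 in DMSO, 137231 and 146239 at 6 h, adjusted p = 0.897), and ACTB, at −0.13 ± 0.05, had an adjusted p of 0.068. Without DMSO replicate 2 both were called lower (adjusted p = 0.0389 for GAPDH and 2.90e-04 for ACTB), and ACTB was also called lower with the replicate block (0.0388), with the crossed block (0.0333) and in the authors' deposited table.

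Secreted inflammatory and senescence-associated factors leaned upward, with 26 of 45 up, 9 down and a median of 0.28. The share that rose was above the 16.1% of all genes tested, and the share that fell was near their 20.6%. The chemokine genes CXCL8 (131 and 118 to 57.5 and 61.5, −1.05 ± 0.16) and CCL2 (697 and 697 to 384 and 409, −0.81 ± 0.09) fell. PLAT, the tissue plasminogen activator gene (8026 and 7601 to 14897 and 14829, 1.9-fold), TIMP3, a protease inhibitor (21394 and 22834 to 35016 and 36039, 1.61-fold), and FGF2, a fibroblast growth factor (2763 and 3009 to 6203 and 5877, 2.09-fold), rose. NF-kB feedback genes had 7 of 20 down (35.0%) and 3 up (15.0%), against 20.6% and 16.1% of all genes tested. With DESeq2 5 were down and 3 up. BIRC3, an inhibitor of apoptosis, was the lowest of those named (216 and 285 to 87.6 and 93.2, −1.45 ± 0.13). The 3 that rose were TNFAIP2, TNIP1 and ICAM1, and the ICAM1 call was lost under 5 of 22 alternatives. Of 31 interferon-stimulated genes 4 rose and 3 fell, below the share of all genes called.

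Matrix and fibroblast genes had medians near 0. Of 47 extracellular matrix genes 11 rose (23.4%) and 6 fell (12.8%), against 16.1% and 20.6% of all genes tested. Their median was 0.01, and after quantile normalization 9 rose and 11 fell. These counts rest on single libraries: 6 rose without 6 h replicate 1, 16 rose without DMSO replicate 1, and 12 fell without DMSO replicate 2. THBS1, thrombospondin 1, rose from 140687 and 150290 to 199700 and 189761 (1.34-fold; not called after quantile normalization, adjusted p = 0.0696), while FBN1, fibrillin 1, fell from 33011 and 33213 to 29219 and 27626 (−0.22 ± 0.05). Of 20 fibroblast markers 4 rose and 5 fell, both near the shares of all genes tested, so the list as a whole did not stand out. Among its members, the lung mesenchyme transcription factor genes TBX5 and FOXF1 fell by 0.53 and 0.48 on the log2 scale and TWIST1 by 0.79. The calcium-binding protein gene S100A4 (0.43), the protease gene FAP (0.24) and the growth factor receptor gene PDGFRB (0.22) rose. Among the epithelial markers, KRT18 rose (2175 and 2158 to 2779 and 2940) and KRT19 fell (211 and 236 to 149 and 169), and KRT8 was not called.

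Clock output genes were lower. Of 17 core clock and clock output genes 9 fell and 2 rose, with a median of −0.51; without 6 h replicate 2, 7 fell and the median was −0.29. PER3, a period gene, went from 422 and 418 to 233 and 234 (−0.85 ± 0.09), the nuclear receptor NR1D1 from 362 and 268 to 183 and 179 (−0.78 ± 0.11) and TEF, a PAR bZIP factor, from 294 and 299.7 to 154 and 199 (−0.76 ± 0.11). BHLHE40, a repressor of clock genes that also answers hypoxia, rose from 2111 and 1873 to 3993 and 4192 (2.06-fold). These genes cycle with time of day, and the harvest time of DMSO and 6 h cells is not given, so exposure cannot be told apart from it.

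In the share of sequencing reads, which grows with transcript length, the 10 largest changes made up more of the gains than of the losses. The normalized counts gained by all genes that rose summed to 5.32% of the DMSO total and the losses to 4.26%. The 10 largest gains made up 17.8% of the gained counts and the 10 largest losses 6.15% of those lost. CDKN1A, MDM2, THBS1, COL4A1 and AHNAK were among the former, with COL6A3 (286169 and 290708 to 333364 and 315210, a rise of 0.17). The COL6A3 call was lost under 4 of 22 alternatives, and without 6 h replicate 1 its rise was 0.13. After quantile normalization THBS1, COL6A3, COL4A1 and AHNAK were not called. The other genes among the 10 largest gains stayed called. The chaperone HSPA8 (86573 and 82478 to 61755 and 63748, −0.43 ± 0.04), NCL and MKI67 were among the 10 largest losses. Of these losses, CD44 and HSP90AA1 lost their calls under 3 and 1 of 22 alternatives.

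What set 6 h apart from longer exposure was tested against the mean of the 9 and 12 h groups, a comparison that does not use the DMSO libraries but uses the same 6 h libraries as above. In it 2327 of 14074 genes were higher at 6 h (16.5%) and 2033 were lower (14.4%). All 78 tested G2/M genes and 57 of 60 G1/S genes were higher at 6 h than later, and 0 of either were lower. HJURP had 936 and 996 at 6 h and 241 to 461 later (1.54 ± 0.06), MKI67 7686 and 7679 against 2392 to 4531 (1.25 ± 0.05), and CCNE2 186 and 169 against 55.7 to 68.5 (adjusted p = 3.28e-09). The p53 target lists differed, beside the 16.5% higher and 14.4% lower of all genes tested. At 6 h 8 of 26 arrest targets were higher and 4 lower, and 5 of 12 repair targets higher and 4 lower. For apoptosis targets 4 of 29 were higher and 10 lower, and for metabolic and redox targets 3 of 28 higher and 12 lower. Secreted, membrane and signalling targets had 11 of 45 higher and 17 lower. SULF2, a heparan sulfatase, had 18.6 and 13.97 in DMSO, 92.6 and 93.2 at 6 h and 287 to 386 later (6 h minus later −1.83 ± 0.12, adjusted p = 5.87e-10). CYFIP2 was likewise on its way up (later 1164 to 1455, −1.48 ± 0.07), as was the sodium channel gene SCN2A (75.3 and 70.9, then 140.1 and 131, later 249 to 355).

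Some genes were high at 6 h and nearer to DMSO later. ANKRD1, a mechanosensitive cofactor, had 677 and 696 in DMSO, 2004 and 2164 at 6 h, 985 and 903 at 9 h and 526 and 605 at 12 h (6 h minus later 1.51 ± 0.06, adjusted p = 6.33e-13). ANO1, a calcium-activated chloride channel, had 319 and 348, then 849 and 913, then 420.2 and 414, and finally 223 and 252. SYT16, a synaptotagmin, had 23.5 and 32.2, then 129 and 124, and 35.4 to 44.8 in the later libraries. TRIB3 was at 476 to 591 later, over a range that took in the higher DMSO library, and SLC7A5 (6650 to 9762) and MTHFD2 (2889 to 3781) had come down as well. E2F7 stood at 2620 and 2463 at 9 h and at 2122 and 2015 at 12 h, so its rise was seen at 6 h and not in the later libraries (6 h minus later 0.71 ± 0.05, adjusted p = 5.54e-10). ERRFI1, an inhibitor of the EGF receptor, went from 7189 and 7525 to 12079 and 11972 and back to 7287 to 7773. TSC22D3, the glucocorticoid-induced leucine zipper gene, went from 406 and 420.1 to 1160 and 1249 and stood at 528 to 677 later.

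The opposite course, low at 6 h and back at or above DMSO later, was seen for other regulators. NR4A2, an orphan nuclear receptor of the immediate early class, had 128 and 124 in DMSO, 30.02 and 42.3 at 6 h, 113 and 107 at 9 h and 199.7 and 224 at 12 h (6 h minus later −2.06 ± 0.14, adjusted p = 4.56e-10). PDE7B, a phosphodiesterase that breaks down cAMP, had 353 and 332, then 110.1 and 96.1, then 338 and 361, and finally 516 and 584 (−2.08 ± 0.09). NR1D1 stood at 183 and 179 at 6 h and at 333 to 462 later, and KRT19 at 149 and 169 against 259 to 369. DUSP10, a MAP kinase phosphatase, and IRS1, the insulin receptor substrate, fell from 1526 and 1487 to 1091 and 1134 and from 6334 and 5992 to 4499 and 4523, and were at 1597 to 1795 and 5869 to 6881 later. MYBL1, the A-MYB gene, fell from 3969 and 4407 to 1616 and 1634 and was part of the way back later (2484 to 3420); of the 21 E2F, RB and DREAM genes 13 were higher at 6 h than later and MYBL1 alone was lower. MXD4, a MAX partner that opposes MYC, was at 1530 and 1490 in DMSO, 1316 and 1347 at 6 h and 2149 to 2876 later; its decrease at 6 h (−0.18 ± 0.05) was lost under 3 of 22 alternatives, 1 of them without 6 h replicate 1 (adjusted p = 0.0905). With groups of 2, and 1 set of 6 h libraries behind both comparisons, a difference between the 6 h cultures and all others in anything but exposure would appear in the same way, and this was not tested.

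**Figure D5:**
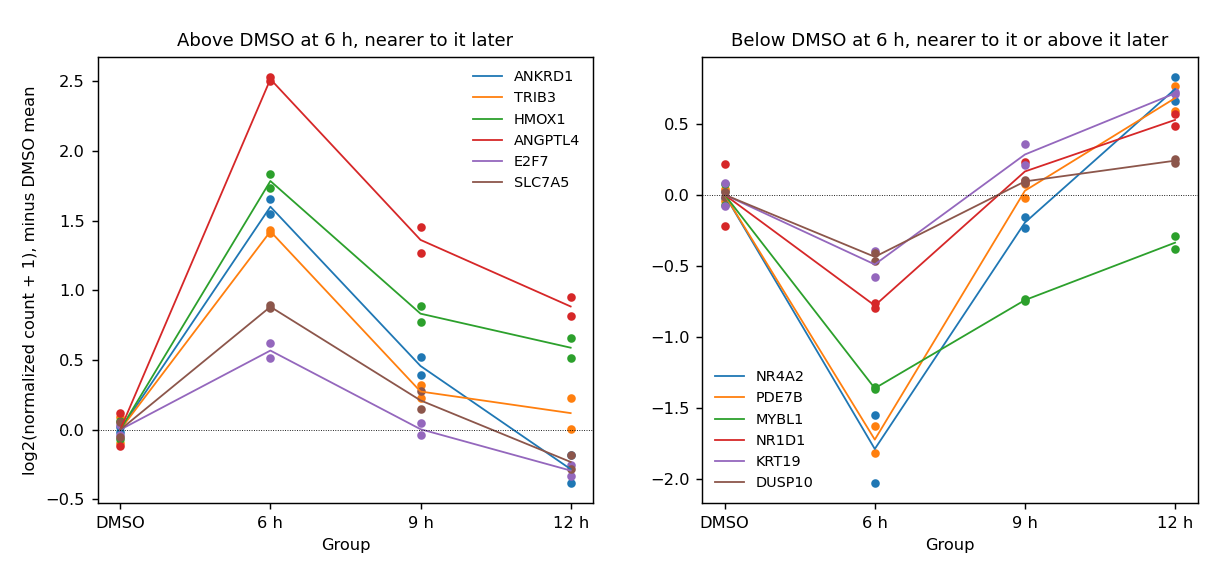
For 12 genes, the points give log2(normalized count + 1) of each of the 8 libraries minus the mean of the DMSO libraries (y), by group (x), and the lines join the means of 2 libraries. On the left ANKRD1, TRIB3, HMOX1, ANGPTL4, E2F7 and SLC7A5 peak at 6 h, and on the right NR4A2, PDE7B, MYBL1, NR1D1, KRT19 and DUSP10 are lowest at 6 h.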

How the data were processed

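PolyA RNA-seq libraries of the 4 groups were analysed from the values the authors deposited. Per the submitters' processing notes, STAR and DESeq2 were used with the genome build hg19; versions, counting tool and annotation go unnamed (not given in the sources used here). What the authors deposited is a normalized signal per gene (gene counts over a size factor) and a table comparing DMSO with 6 h that holds log2 fold changes, the score of a Wald test, and p-values. In 100% of cases (tolerance 1e-06) a value divided by what 1 read is worth was whole, and these reads were used for edgeR and DESeq2. The table listed 18216 genes; 3 entries naming no gene (28.2 to 29.1% of a library) were left out. A floor of 3 reads corresponds to 2.46 to 3.75 normalized counts and covers counting error only.

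Genes with at least 10 in at least 2 of 8 libraries were tested with limma 3.58.1 (R 4.3.3, intensity trend, all 8 libraries, 4 residual and 15.5 prior degrees of freedom) on log2(value + 1), a scale that shrinks fold changes at low counts. With 2 libraries a group, an exact permutation p cannot go below 0.333. Alternatives were edgeR 4.0.16, DESeq2 1.42.0, other scalings, filters, pseudocounts, spreads and samples.

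Genes, lists and comparisons were chosen with earlier results of these data known. The naming rule took the 20 largest increases and 20 largest decreases (mean of at least 50, groups apart), the 6 largest differences each way from the later groups, the 10 largest gains and losses in normalized count, up to 5 members of each list with the smallest p and up to 3 that went against its majority, and fixed genes, 215 in all. Members not called, genes with a p53 element other than MDM2, FAS and DDB2, and families of gene symbols were named after their values were seen. Gene symbols are those of the table. Promoter windows are from RefSeq (GRCh38.p14) and were joined by symbol only, with no coordinates taken across builds. Some results are not reported here.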

Additional observations from a re-analysis of the deposited data

Results flagged for a closer look

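The change at 6 h differed from that at 9 and 12 h for 146 of the 215 named genes by the limma test of the 6 h mean against the mean of the later groups. The 28 for which this difference was at least 2-fold are given here as 6 h minus later on the log2 scale; the other 118 were smaller. Above later exposure were SYT16 (1.67), ZNF367 (1.57), HJURP (1.54), ANKRD1 (1.51), CCNE2 (1.4999), ANO1 (1.48), ANGPTL4 (1.39), FAM111B (1.29), MKI67 (1.25), TRIB3 (1.23), WDR76 (1.23), E2F2 (1.22), E2F8 (1.21), E2F1 (1.17), CCNA2 (1.14), CDCA5 (1.10), CLSPN (1.08), EXO1 (1.08), HMOX1 (1.07), TSC22D3 (1.03) and KIF11 (1.01). The cell-cycle genes among them were below DMSO at 6 h and lower still later. Below later exposure were NR1D1 (−1.13), SCN2A (−1.15), ANKEF1 (−1.15), CYFIP2 (−1.48), SULF2 (−1.83), NR4A2 (−2.06) and PDE7B (−2.08). SULF2, CYFIP2 and SCN2A were above DMSO at 6 h, and NR4A2, PDE7B, NR1D1 and ANKEF1 below it. The ANKEF1 decrease from DMSO was lost under 4 of 22 alternatives: in the authors' deposited table, with DESeq2 (adjusted p = 0.124), and with limma without DMSO replicate 1 (0.0808) or without 6 h replicate 2 (0.0627). Harvest times are not given, and their part in these differences was not tested.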

How the results depend on the processing

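Among 22 alternatives for 6 h against DMSO, genes that rose numbered from 1501 to 2680 when 1 library at a time was left out and genes that fell from 2136 to 3189, against 2263 and 2897. The count of 1501 came without 6 h replicate 1, and its cause was not tested. For 6 h against later exposure the ranges were 1455 to 2903 higher and 1289 to 2626 lower; without 6 h replicate 1 the counts were 1455 and 1289, and without 6 h replicate 2, 1306 were lower. The edgeR test gave 2383 up and 2702 down, DESeq2 1664 and 2259, the authors' deposited table gave 1607 and 2254, a fit of the 2 groups alone 1746 and 2388, and quantile normalization 2491 and 2537. Same-numbered DMSO and 6 h libraries did not deviate together (correlation −0.152), so numbers were not taken as pairs; the replicate block gave 2269 and 2892, and a crossed block, chosen after seeing the data, 2453 and 3070. No calls were gained or lost by 178 of 215 named genes at any setting; 34 lost theirs at 1 setting or more and ACTB, GAPDH and CLDN4 gained one. After quantile normalization COL6A3 (−3.55e-15, which is 0 within rounding) and COL4A1 (−0.012) turned from their small increases. Over all alternatives 57 to 58 G1/S and 76 to 77 G2/M genes fell, and 21 to 24 arrest targets rose. Depth limits genes near 3 reads, and 2 libraries a group limit small changes.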

Other observations

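Gene families that share a symbol stem, none of them a list above, differed in how many members moved at 6 h. Of 38 centrosomal CEP genes 21 fell (55.3%, median −0.26) and of 35 kinesin (KIF) genes 17 fell (48.6%, median −0.32), some of the latter being members of the G2/M list. Of 73 genes with the stem ATP, mostly ion pump and ATP synthase subunits, 20 rose and 5 fell. Of 33 VPS genes, which serve vesicle sorting, 11 rose and 5 fell, and of 43 TRIM ubiquitin ligase genes 15 rose and 7 fell. None of 31 POLR genes, subunits of RNA polymerases, rose, and 9 fell; of 50 mitochondrial ribosome genes with the stem MRPL 2 rose and 15 fell. The background was 16.1% rising and 20.6% falling, and these stems were picked after their counts were seen.

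Long non-coding RNAs leaned upward: 77 of 553 tested rose (13.9%) and 28 fell (5.06%), against 16.4% and 22.4% of 12373 protein-coding genes. Their median normalized count was 29.04, against 725 for protein-coding genes, and the part of their level in these shares was not tested. THRIL fell from 212 ± 28.6 to 97.3 ± 0.36 normalized counts (SD, n = 2 libraries) and MIR155HG, the host gene of miR-155, from 138 ± 2.36 to 71.8 ± 1.02. LINC01679 rose from 32.9 ± 3.64 to 91.9 ± 6.27 and FRMD6-AS1 from 37.3 ± 12.6 to 70.6 ± 6.12. With MIR34AHG and NEAT1 these were the 4 largest increases among lncRNAs that rose at a mean of at least 50. FRMD6-AS1 is named as an antisense gene, and whether the counting used strand is not given in the sources used here.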
